A study of Mus musculus with 6 samples.

Results

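The fibroblast growth factor (FGF) genes of mouse skin described here are a named list of 10 genes, taken from the 26579 genes of the count table by their Ensembl identifiers. They are the ligand genes *Fgf5*, *Fgf7*, *Fgf10*, *Fgf18*, *Fgf21* and *Fgf22*, the receptor genes *Fgfr1*, *Fgfr2* and *Fgfr3*, and *Fgfbp1*, which encodes an FGF-binding protein. The RNA came from the dorsal neck of 3 wild type mice and 3 YAP2-5SA-∆C mice, all female, littermates and 33 days old, and was measured by RNA-Seq. YAP2-5SA-∆C mice carry a transgene for an altered, mildly activated form of Yes-associated protein (YAP), which is expressed in the basal layer of keratinocytes, where Keratin5 and Keratin14 are made, and the wild type mice carry none. Skin of YAP2-5SA-∆C mice is called transgenic beside some values. Each library came from a punch biopsy of whole skin, so a lower count can come from fewer cells of a type or from less RNA per cell, and these cannot be told apart. The question is how the RNA of FGF ligands, receptors and signalling genes differs between skin with the transgenic, activated YAP and skin with the mouse's own YAP alone.

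FGF ligands are secreted proteins that bind receptor tyrosine kinases on nearby cells, with heparan sulfate as a partner, and signal through the RAS and MAP kinase cascade to ERK. In skin, FGF7, FGF10 and FGF22 act on the FGFR2 form made by keratinocytes, with FGF7 and FGF10 known mainly as products of the dermis. FGF5 is made in the hair follicle and is known as the signal that ends hair growth, since animals without it have long hair.

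The libraries held between 11225705 and 19505036 counts on genes, of which the genes of mitochondrial DNA took between 19.3% and 23.1%. *Yap1* was measured at 125 to 142 CPM (counts scaled to library size with TMM factors) in wild type and 130 to 144 CPM in transgenic skin, with a log2 fold change of 0.06 (SE 0.07). The false discovery rate by the quasi-likelihood test of edgeR, from here on the QL FDR, was 0.635. The labels do not say whether transgene reads were counted on this mouse gene, so it does not check the genotype. Keratinocyte, hair follicle, fibroblast, adipocyte, muscle and macrophage markers were all detected, as whole skin holds. YAP2-5SA-∆C replicate 2 stood apart, with the lowest summed CPM of hair shaft and inner root sheath markers of the 6 libraries. The main calls and the hair and basal keratinocyte lists are given with and without it, a choice made after its values were seen. The p-values of all fits set a difference against the spread between these 3 mice of each genotype. Each gene's spread was estimated with information from the other tested genes.

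*Fgf5*, *Fgf10* and *Fgf22* had lower means in YAP2-5SA-∆C skin, *Fgfbp1* had a higher mean, and none of the 3 receptor genes passed the test. The test took the 15102 genes that reached 1 CPM in 3 or more libraries, of which 1.91% passed a QL FDR of 0.05. It took 9 of the 10 FGF genes, *Fgf21* being too low. Of these 9 genes, 2 passed (22.2%). *Fgfbp1* was the 1 gene that was higher in YAP2-5SA-∆C skin, against 1.44% of all genes tested, and *Fgf22* was the 1 gene that was lower, against 0.464%. With the likelihood-ratio test of edgeR, 3 of 9 passed (33.3%, against 10.4% of all genes), *Fgf5* being added. Over the 9 genes, 5 were fitted higher and 4 lower, with a median log2 fold change of 0.11, against -0.01 over all genes tested. The genotypes did not overlap in 4 of the 9 genes (44.4%, against 33.8% of all genes tested), which were *Fgf5*, *Fgf10* and *Fgf22* among the lower and *Fgfbp1* as the higher gene. For a single gene, 3 mice against 3 cannot go below p = 0.1 in an exact permutation test.

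**Figure D1:**
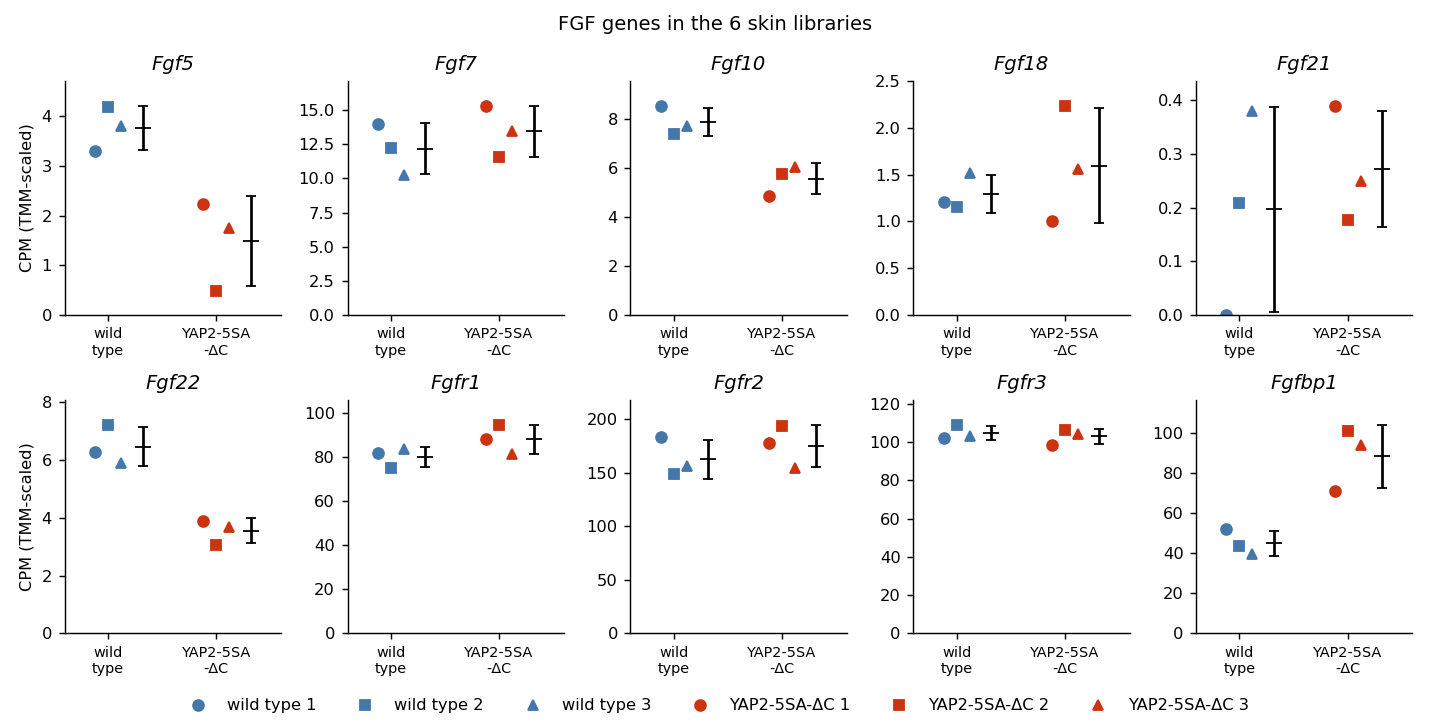
CPM of each FGF gene (vertical axis, linear from 0, own scale in each panel) in 3 wild type (blue) and 3 YAP2-5SA-∆C (red) libraries, with symbols for replicate numbers and the mean ± SD of each genotype in black. The genotypes are separate for *Fgf5*, *Fgf10*, *Fgf22* and *Fgfbp1*, and they overlap for the other 6 genes.

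*Fgf5* (ENSMUSG00000029337) lies on the plus strand at chr5:98254184-98277030 of GRCm38. GENCODE M21 gives it 2 transcripts, and no exon of another gene overlaps it. The longer transcript, Fgf5-201, has 3 exons, and the shorter one, Fgf5-202, runs from within the first exon to within the last and lacks the 104 bases of exon 2. The count table sums both transcripts. The study's own assay for *Fgf5*, done by RT-PCR, is shown beside it because it reads the longer transcript alone. Its forward primer lies within exon 2 (bases 56 to 78 of the exon) and its reverse primer in the last exon, and together they give a product of 123 bases on Fgf5-201 and none on Fgf5-202. In exon 2, capitals mark the forward primer's site. The exon lies at chr5:98261943-98262046, plus strand.
Fgf5 exon 2: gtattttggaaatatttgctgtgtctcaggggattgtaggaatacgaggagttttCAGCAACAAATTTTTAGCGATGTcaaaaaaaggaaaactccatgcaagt
Forward primer: cagcaacaaatttttagcgatgt
Reverse primer: atcgcggacgcataggtatt

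*Fgf5* had 60, 80 and 40 counts in wild type replicates 1, 2 and 3, and 40, 8 and 28 counts in YAP2-5SA-∆C replicates 1, 2 and 3. In CPM these were 3.30, 4.19 and 3.81 in wild type and 2.22, 0.471 and 1.75 in YAP2-5SA-∆C skin. Every YAP2-5SA-∆C library was below every wild type library, and replicate 2 was far below the other 2. The mean was 3.76 ± 0.446 CPM (SD, n = 3) in wild type, against 1.48 ± 0.907 CPM (SD, n = 3) in transgenic skin. The log2 fold change was -1.34 (SE 0.44, 95% interval -2.38 to -0.29), so that wild type was 2.53-fold higher. It missed the threshold of the main test (QL FDR 0.121) and in voom (FDR of 0.0980), and passed in the likelihood-ratio test (FDR of 6.39e-04) and in DESeq2 (adjusted p = 0.0417). Without YAP2-5SA-∆C replicate 2 the log2 fold change was -0.90, with a QL FDR of 0.0603. The study chose *Fgf5* for its own follow-up from these same libraries, so this difference is not independent evidence of its direction.

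*Fgf22* (ENSMUSG00000020327) lies on the plus strand at chr10:79755076-79758596 of GRCm38. It had 114, 138 and 62 counts in wild type and 70, 52 and 59 counts in transgenic skin, in the order of the replicate numbers. In CPM these were 6.27, 7.22 and 5.90 in wild type and 3.89, 3.06 and 3.68 in YAP2-5SA-∆C skin, where all 3 libraries were below all wild type libraries. The mean was 6.46 ± 0.683 CPM (SD, n = 3) in wild type, against 3.54 ± 0.434 CPM (SD, n = 3) in transgenic skin. *Fgf22* fell by 0.87 on the log2 scale (SE 0.15, 95% interval -1.22 to -0.52, QL FDR 0.0437), so that wild type was 1.83-fold higher. The call was at the edge of the threshold. It held without YAP2-5SA-∆C replicate 2 (log2 fold change -0.76, QL FDR 0.0424), and was lost without wild type replicate 1 (QL FDR 0.0728), 2 (QL FDR 0.186) or 3 (QL FDR 0.141) and without YAP2-5SA-∆C replicate 1 (QL FDR 0.0688) or 3 (QL FDR 0.0906). Exons of *Rnf126*, on the opposite strand, cover 82 bases or 3.65% of its exon length, and without a stated strand setting reads there cannot be told apart.

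*Fgf10* (ENSMUSG00000021732, plus strand, chr13:118669791-118792115) and *Fgf7* (ENSMUSG00000027208, plus strand, chr2:126034658-126091185) encode mesenchymal ligands of the epithelial FGFR2 form. Exons of *Gm16263*, on the opposite strand, overlap 2.67% of the exon length of *Fgf10*, and none overlap *Fgf7*. *Fgf10* had 8.52, 7.38 and 7.71 CPM in wild type against 4.84, 5.77 and 6.05 CPM in transgenic skin. The genotypes did not overlap, with means of 7.87 ± 0.588 and 5.55 ± 0.635 CPM (SD, n = 3 each). Its log2 fold change, -0.50 (SE 0.13, 95% interval -0.81 to -0.20), did not pass in the main test (QL FDR 0.0735), the likelihood-ratio test (FDR of 0.0674), voom (FDR of 0.0734) or DESeq2 (adjusted p = 0.110). *Fgf7*, known as keratinocyte growth factor, had 14.0, 12.2 and 10.3 CPM in wild type against 15.3, 11.6 and 13.5 CPM in transgenic skin. Its genotypes overlapped, with a log2 fold change of 0.14 (95% interval -0.21 to 0.49, QL FDR 0.587).

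*Fgf18* (ENSMUSG00000057967, minus strand, chr11:33117430-33147400), a ligand known from the resting hair follicle, had 1.21, 1.15 and 1.52 CPM in wild type against 1.00, 2.24 and 1.56 CPM in transgenic skin. The genotypes overlapped, and YAP2-5SA-∆C replicate 2 was the highest library. Its log2 fold change was 0.32 (95% interval -0.44 to 1.09, QL FDR 0.559) and 0.02 without that library. *Fgf21* (ENSMUSG00000030827, minus strand, chr7:45613886-45615490), which encodes an endocrine FGF known from liver, had 0, 4 and 4 counts in wild type and 7, 3 and 4 counts in transgenic skin. It did not reach 1 CPM in any library, and its 8 counts against 14 gave a ratio of YAP2-5SA-∆C to wild type of 1.64 with a 95% interval of 0.642 to 4.51, which covers counting error only. A difference of *Fgf21* between genotypes was not detectable at this depth.

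The receptor genes had narrower 95% intervals than the tested ligand genes. They are *Fgfr1* (ENSMUSG00000031565, plus strand, chr8:25513654-25575718), *Fgfr2* (ENSMUSG00000030849, minus strand, chr7:130162451-133123350) and *Fgfr3* (ENSMUSG00000054252, plus strand, chr5:33721674-33737068). *Fgfr2*, whose epithelial form binds FGF7, FGF10 and FGF22, had 183, 149 and 156 CPM in wild type against 177, 194 and 155 CPM in transgenic skin. *Fgfr3* had 102, 109 and 103 CPM in wild type against 98.4, 106 and 104 CPM in transgenic skin. *Fgfr1* had 82.2, 75.0 and 83.7 CPM in wild type against 88.3, 94.9 and 81.5 CPM in transgenic skin. In each receptor gene the genotypes overlapped. The log2 fold changes were 0.11 for *Fgfr2* (95% interval -0.15 to 0.37, QL FDR 0.571), -0.03 for *Fgfr3* (95% interval -0.16 to 0.11, QL FDR 0.806) and 0.14 for *Fgfr1* (95% interval -0.05 to 0.32, QL FDR 0.303). These intervals leave room for differences of up to 0.37 on the log2 scale, and a p that misses the threshold does not show equal levels. Counts per gene do not separate the epithelial and mesenchymal forms of a receptor, which differ by one exon. Exons of other genes overlap 13.9% of the exon length of *Fgfr3*, 3.04% of *Fgfr2* and 1.66% of *Fgfr1*.

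*Fgfbp1* (ENSMUSG00000048373) encodes a secreted carrier that releases FGFs from heparan sulfate of the matrix. It lies on the minus strand at chr5:43978858-43981779 of GRCm38, and no exon of another gene overlaps it. It had 946, 830 and 416 counts in wild type and 1276, 1718 and 1506 counts in transgenic skin. In CPM these were 52.0, 43.4 and 39.6 in wild type and 71.0, 101 and 94.0 in YAP2-5SA-∆C skin, so the lowest YAP2-5SA-∆C library was above the highest wild type library. The mean was 45.0 ± 6.36 CPM (SD, n = 3) in wild type, against 88.7 ± 15.7 CPM (SD, n = 3) in transgenic skin. *Fgfbp1* rose 1.97-fold, a log2 fold change of 0.98 (SE 0.15, 95% interval 0.61 to 1.34, QL FDR 0.0414). It held without YAP2-5SA-∆C replicate 2 (log2 fold change 0.89, QL FDR 0.0229), and was lost without wild type replicate 1 (QL FDR 0.0511), 2 (QL FDR 0.186) or 3 (QL FDR 0.142) and without YAP2-5SA-∆C replicate 3 (QL FDR 0.0906).

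**Figure D2:**
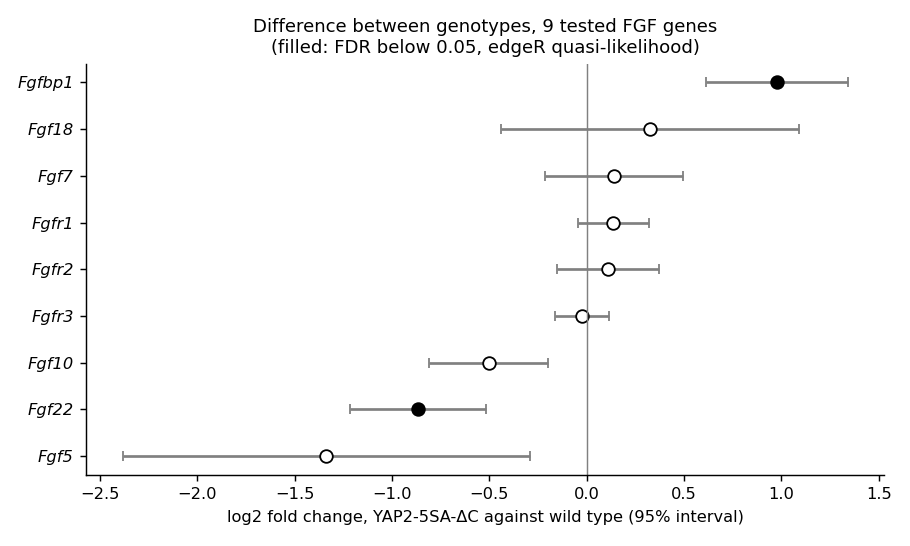
Log2 fold change of YAP2-5SA-∆C against wild type skin (horizontal axis) of the 9 tested FGF genes, with 95% intervals, filled where the FDR of edgeR's quasi-likelihood test was below 0.05. *Fgf5*, *Fgf10* and *Fgf22* have intervals wholly below 0 and *Fgfbp1* wholly above 0, and the 5 others span 0.

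The sequences just before the 2 genes that passed the quasi-likelihood test are given for context, from RefSeq's promoters on GRCm38.p6. YAP acts in the nucleus through TEAD factors, often beside AP-1 factors, so the windows from 250 bases before to 50 bases after the start were searched on both strands for GGAATG, bound by TEAD factors, and for TGANTCA, bound by AP-1 factors. A promoter was given for 9 of the 10 genes (10 windows, *Fgfr1* being without one). Neither motif was found in any of them (0 of 9 genes), whereas 14.7% of 32851 promoters held GGAATG and 7.81% held TGANTCA. An absent match says only that these letters are not in the window. The stretches printed end before the first base that RefSeq or GENCODE M21 gives as transcribed, read 5′ to 3′ on the gene's strand, with nothing in capitals because nothing matched. The *Fgf22* stretch lies at chr10:79754859-79755075 (plus strand) with a GC content of 60.8%, and the *Fgfbp1* stretch at chr5:43981800-43982049 (minus strand) with 53.6%.
Fgf22 promoter: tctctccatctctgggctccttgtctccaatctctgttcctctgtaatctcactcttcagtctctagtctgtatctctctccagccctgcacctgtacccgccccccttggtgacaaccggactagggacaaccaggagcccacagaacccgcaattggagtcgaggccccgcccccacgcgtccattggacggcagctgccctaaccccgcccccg
Fgfbp1 promoter: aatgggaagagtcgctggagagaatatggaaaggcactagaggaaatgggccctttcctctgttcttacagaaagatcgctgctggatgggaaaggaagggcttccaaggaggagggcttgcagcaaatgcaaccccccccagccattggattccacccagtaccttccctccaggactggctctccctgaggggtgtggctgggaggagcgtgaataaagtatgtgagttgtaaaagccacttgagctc

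Levels of different genes were compared per length, as counts per exon length and library size (FPKM, from the union of each gene's exons). In wild type skin the order of mean FPKM was *Fgfbp1* (19.9), *Fgfr2* (15.8), *Fgfr3* (14.7), *Fgfr1* (8.13), *Fgf7* (3.75), *Fgf22* (2.88), *Fgf10* (1.71), *Fgf5* (1.50), *Fgf18* (1.09) and *Fgf21* (0.207). The ranges over the 3 wild type libraries overlapped between *Fgfbp1* and *Fgfr2*, *Fgfr2* and *Fgfr3*, *Fgf7* and *Fgf22*, and *Fgf10* and *Fgf5*, so these neighbours did not differ beyond their spread. In YAP2-5SA-∆C skin *Fgfbp1* was at 39.2 FPKM, followed by *Fgfr2* at 17.0, *Fgfr3* at 14.4, *Fgfr1* at 8.94 and *Fgf7* at 4.14, none of which overlapped its neighbour. The next were *Fgf22* (1.58), *Fgf18* (1.35) and *Fgf10* (1.21), whose ranges overlapped from one to the next, and the last were *Fgf5* (0.592) and *Fgf21* (0.286), which overlapped each other. The receptor genes and *Fgfbp1* thus stood above all ligand genes in both genotypes, and *Fgf7* stood highest among the ligands, apart from *Fgf22* in YAP2-5SA-∆C skin and overlapping it in wild type. With the longest transcript as the length, *Fgfr2* came first in wild type (36.7 FPKM), then *Fgfr3* (24.7) and *Fgfbp1* (20.5). In YAP2-5SA-∆C skin that length put *Fgfbp1* at 40.5 FPKM (32.4 to 46.1) and *Fgfr2* at 39.6 FPKM (34.9 to 43.8), which overlapped.

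**Figure D3:**
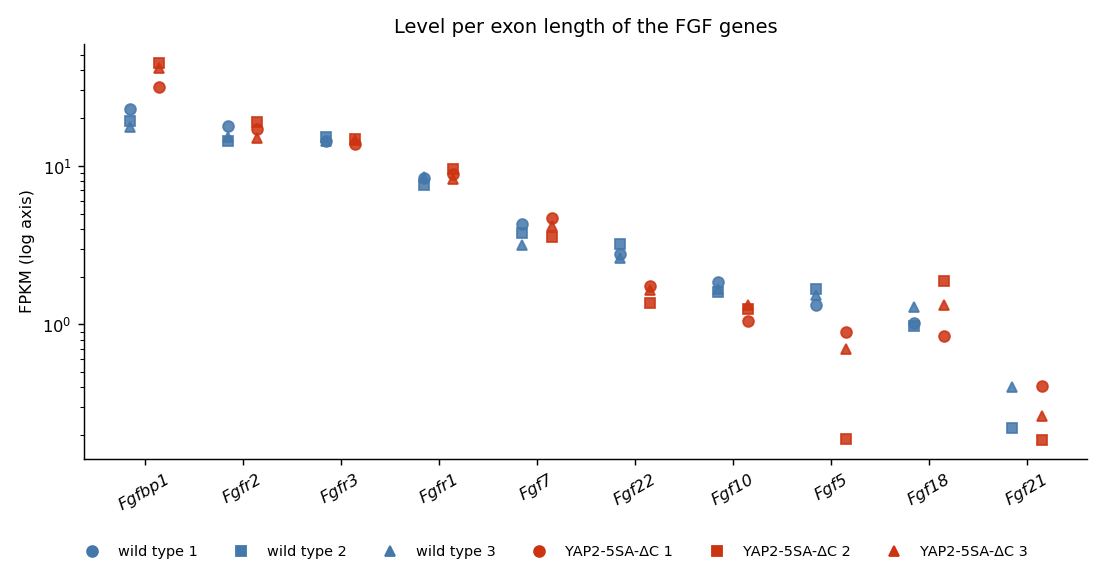
FPKM (vertical log axis) of each FGF gene in the 3 wild type (blue) and 3 YAP2-5SA-∆C (red) libraries, ordered by the wild type mean. The receptor genes and *Fgfbp1* lie above the ligand genes in all 6 libraries, and *Fgf21* in wild type replicate 1, at 0, cannot be drawn on this axis.

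The libraries in which *Fgf5* and *Fgf22* were low were also low in the summed hair shaft and inner root sheath markers. The 13 tested hair shaft and matrix genes, of which the keratin gene *Krt33a* had the highest mean, summed to 3232, 5905 and 4975 CPM in wild type and to 1492, 188 and 1819.9 CPM in YAP2-5SA-∆C replicates 1, 2 and 3. All 13 were fitted lower with an unadjusted p under 0.05, which 26.3% of all tested genes had (13.3% higher and 13.0% lower). Their median log2 fold change was -1.90, against -0.01 over all genes tested. With all 6 libraries 0 of 13 passed the QL FDR, and 13 passed in the likelihood-ratio test, where 10.4% of all genes did. DESeq2 called 3 of the 13 lower (*Foxn1*, *Msx2* and *Lef1*, named after their values were seen) and 0 of the 10 inner root sheath genes, against 10.7% of the 14807 genes to which it gave an adjusted p. When YAP2-5SA-∆C replicate 2 was left out, all 13 passed the QL FDR as lower, with a median log2 fold change of -1.36, and 5.46% of all genes passed. That library was chosen for its low hair marker sums after they were seen. With any other single library left out, 0 cell type genes passed the QL FDR as lower. The 10 inner root sheath genes, led by *Tchh* (trichohyalin), summed to 13079, 15902 and 15129.5 CPM in wild type and to 7055, 1598 and 8862 CPM in transgenic skin, with 0 passing the QL FDR, 8 lower at an unadjusted p under 0.05 and 8 lower in the likelihood-ratio test. Of these 10 genes 9 were fitted lower and 1 higher, which was *Gata3* (log2 fold change 0.22, QL FDR 0.320), named after its values were seen. When YAP2-5SA-∆C replicate 2 was left out, 8 inner root sheath genes passed the QL FDR as lower, and the median log2 fold change went from -1.38 to -0.91. YAP2-5SA-∆C replicate 2 was the lowest of the 6 in both sums, in *Fgf5* and in *Fgf22*, and the other 2 transgenic libraries were also below every wild type library in all of these. The other follicle lists were mixed, with 3 outer root sheath and bulge genes fitted higher and 5 lower, and 4 dermal papilla genes fitted higher and 6 lower. What part the hair follicle's RNA had in the lower *Fgf5* and *Fgf22* was not tested.

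*Fgfbp1* was high in the libraries with high basal keratinocyte markers. The 6 basal keratinocyte genes summed to 3921, 3315 and 3578 CPM in wild type and to 5406, 6987 and 5878 CPM in transgenic skin, the latter highest in replicate 2 as *Fgfbp1* was. All 6 were fitted higher, and 4 were higher at an unadjusted p under 0.05 (66.7%, against 13.3% of all genes tested). The QL FDR was passed by 1 (16.7%, against 1.44%), with 3 of 6 higher in the likelihood-ratio test and 4 of 6 in DESeq2. In either direction, the likelihood-ratio test called 10.4% of all genes, and DESeq2 10.7% of those with an adjusted p. When YAP2-5SA-∆C replicate 2 was left out, 2 of 6 passed the QL FDR, and the median log2 fold change went from 0.56 to 0.39. In that fit 5.46% of all genes passed in either direction, against 1.91% with all 6 libraries. The gene that passed with all 6 libraries was *Krt14*, the keratin of the basal layer, which rose from 1648 ± 19.6 to 3187 ± 300.2 CPM (SD, n = 3 each), by 0.95 on the log2 scale (QL FDR 0.0300, and 0.0122 without YAP2-5SA-∆C replicate 2). Its call was lost without wild type replicate 2 (QL FDR 0.172) or 3 (QL FDR 0.129) and without YAP2-5SA-∆C replicate 3 (QL FDR 0.0906). The macrophage and suprabasal keratinocyte sums were also higher in every transgenic library than in every wild type library, and highest in YAP2-5SA-∆C replicate 2. What part the RNA of basal keratinocytes or of these other cells had in the higher *Fgfbp1* was not tested.

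**Figure D4:**
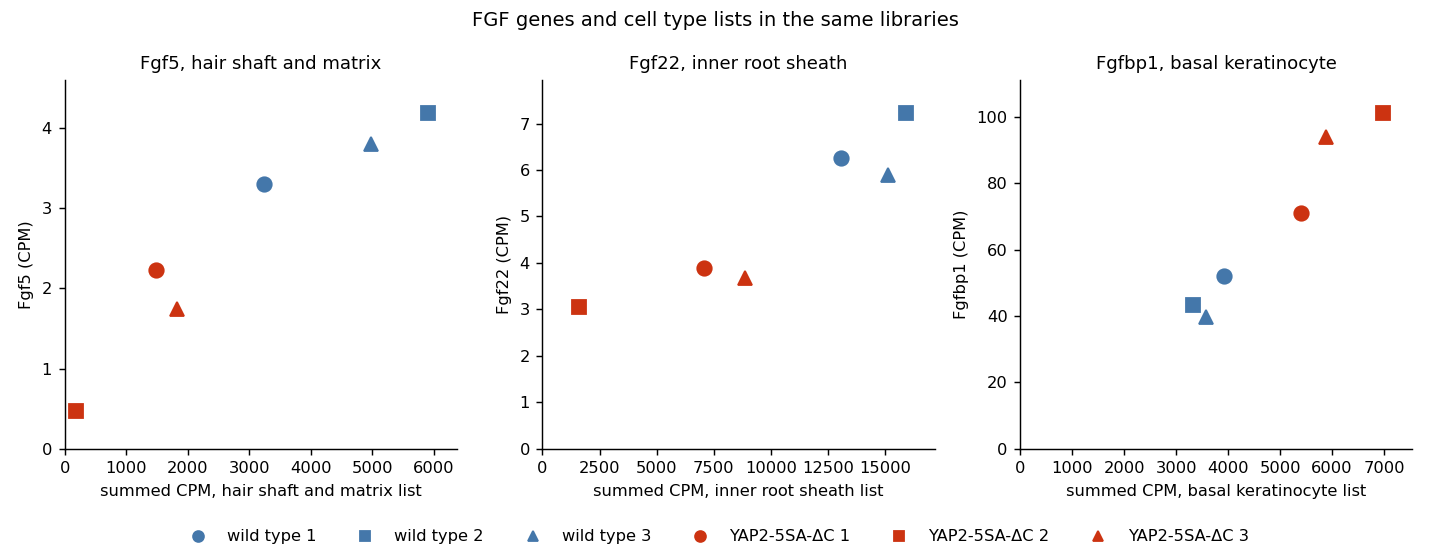
CPM of *Fgf5*, *Fgf22* and *Fgfbp1* (vertical axes, from 0) against the summed CPM of a cell type list (horizontal axes, from 0) in the same 3 wild type (blue) and 3 YAP2-5SA-∆C (red) libraries. YAP2-5SA-∆C replicate 2 (red square) is lowest in both hair lists, in *Fgf5* and in *Fgf22*, and highest in the basal keratinocyte list and in *Fgfbp1*.

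Among 154 other tested genes (146 of the pathway and cell type lists and the 8 other FGF genes), those most like each of these genes over the 6 libraries were named by Pearson's r of log2 CPM, which describes 6 libraries of 2 genotypes and carries the genotype difference itself. For *Fgf5* they were *Krt36* (r = 0.994), *Krt28* (r = 0.993) and *Lef1* (r = 0.992), of which *Krt36* and *Krt28* encode hair follicle keratins and *Lef1* a transcription factor of the hair matrix. For *Fgf22* they were *Braf* (r = 0.949), *Sdc1* (r = 0.939) and *Prdm1* (r = 0.921). For *Fgfbp1* they were *Krt14* (r = 0.970), *Fosl1* (r = 0.969) and *Itga6* (r = 0.943), where *Itga6* encodes an integrin by which basal keratinocytes hold to the basement membrane. Over the 5 libraries without YAP2-5SA-∆C replicate 2, a check chosen after seeing the data, r was 0.971, 0.964 and 0.967 for the genes named with *Fgf5*, 0.953, 0.898 and 0.932 for those named with *Fgf22*, and 0.959, 0.952 and 0.936 for those named with *Fgfbp1*.

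The rest of the FGF pathway was followed in 5 lists of 69 genes, of which 55 were tested and 1 passed the QL FDR (1.82%, against 1.91% of all genes tested). Of 16 other ligand genes only 4 were expressed highly enough to test, and 0 passed. They were *Fgf1* at 10.2 ± 1.70 CPM in wild type against 8.92 ± 1.63 CPM in transgenic skin (SD, n = 3 each), *Fgf2* with a log2 fold change of 0.01, *Fgf11* with 0.38 (95% interval -0.07 to 0.83) and *Fgf13* with -0.03. Of 6 genes for other receptors, co-receptors and binding proteins, 5 were tested and 0 passed. The 2 with the lowest p were *Fgfr4*, with a log2 fold change of 0.65 (95% interval -0.16 to 1.46, QL FDR 0.275), and *Fgfrl1*, a receptor without a kinase domain, with -0.22 (95% interval -0.53 to 0.09, QL FDR 0.328). All 11 heparan sulfate proteoglycan genes were tested and 0 passed, and those with the lowest p were the syndecan genes *Sdc4* (log2 fold change 0.19, QL FDR 0.146) and *Sdc1* (-0.18, QL FDR 0.152). The medians of the log2 fold change were -0.01, -0.0026 and -0.03 in these 3 lists, against -0.01 over all genes tested, and without YAP2-5SA-∆C replicate 2 they were -0.12, 0.17 and -0.08, with 0 passing in each.

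Of 18 signal transducers, from adaptors to kinases, all were tested and 0 passed in the quasi-likelihood test, with a median log2 fold change of -0.04. At an unadjusted p under 0.05, 1 was higher and 4 were lower (27.8%, against 26.3% of all genes tested). *Braf*, a kinase between RAS and MEK, had 189, 211 and 212 CPM in wild type against 146, 101 and 142 CPM in transgenic skin. The genotypes did not overlap, and the log2 fold change of -0.65 (SE 0.14) missed the threshold (QL FDR 0.0588) but passed in the likelihood-ratio test (FDR of 0.0043) and in DESeq2. *Braf* also passed without YAP2-5SA-∆C replicate 2, its lowest library (log2 fold change -0.49, QL FDR 0.0193), where 5.46% of all genes passed. It missed without wild type replicate 1 (QL FDR 0.0860), 2 (QL FDR 0.197) or 3 (QL FDR 0.179) and without YAP2-5SA-∆C replicate 1 (QL FDR 0.0778) or 3 (QL FDR 0.0926). *Mapk3*, which encodes ERK1, had 39.6 ± 2.61 CPM in wild type against 49.2 ± 1.73 CPM in transgenic skin (SD, n = 3 each), with a log2 fold change of 0.32 (QL FDR 0.0619, likelihood-ratio FDR 0.176, DESeq2 adjusted p = 0.0188).

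The feedback inhibitors and ERK-induced targets had the lowest median of the pathway lists with all 6 libraries. Of 18 genes 17 were tested, 12 of them were fitted lower, and the median log2 fold change was -0.16. In the quasi-likelihood test 1 gene passed (5.88%, against 1.91% of all genes tested), and 6 were lower and 1 was higher at an unadjusted p under 0.05 (41.2%, against 26.3%). The median was -0.04 without YAP2-5SA-∆C replicate 2, and then no longer the lowest of the lists (-0.12 in the other ligands). The gene that passed was *Flrt2*, for a membrane protein of cell adhesion. It had 135, 122 and 138 CPM in wild type against 105, 95.7 and 97.9 CPM in transgenic skin, so that the genotypes did not overlap. *Flrt2* fell by 0.40 on the log2 scale (SE 0.07, QL FDR 0.0446). The call held without YAP2-5SA-∆C replicate 2 (QL FDR 0.0397) and was lost without wild type replicate 1 (QL FDR 0.0777), 2 (QL FDR 0.177) or 3 (QL FDR 0.144) and without YAP2-5SA-∆C replicate 1 (QL FDR 0.0683) or 3 (QL FDR 0.0912). *Fosl1*, an AP-1 factor induced by ERK, had 1.98, 2.09 and 1.24 CPM in wild type against 3.06, 5.06 and 4.31 CPM in transgenic skin. All YAP2-5SA-∆C libraries were above all wild type libraries, with a log2 fold change of 1.19 (SE 0.26, QL FDR 0.0612, likelihood-ratio FDR 2.54e-04). Leaving out YAP2-5SA-∆C replicate 2, its highest library, gave 1.02 (QL FDR 0.0783). *Fosl1* was also chosen by the study from these libraries. Seen in the values rather than picked by rule, *Flrt3* (-0.61) and the ETS factor gene *Etv4* (-0.59) passed along with *Flrt2* and *Fosl1* in the likelihood-ratio test and in DESeq2. In each test these were 1 higher and 3 lower of 17 genes, against 10.4% and 10.7% of all genes in either direction. Without YAP2-5SA-∆C replicate 2, where 5.46% of all genes passed, *Flrt3* also passed the main test (log2 fold change -0.39, QL FDR 0.0380) and *Etv4* did not (-0.38, QL FDR 0.129). *Flrt3* missed with all 6 libraries (QL FDR 0.100) and with any other single library left out (QL FDR 0.111 to 0.260). The tested genes of this list summed to 656 to 697 CPM in wild type and to 465 to 575 CPM in transgenic skin, the lowest in replicate 2, which was also lowest in the hair lists. What part the hair follicle's RNA had in this sum was not tested.

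**Figure D5:**
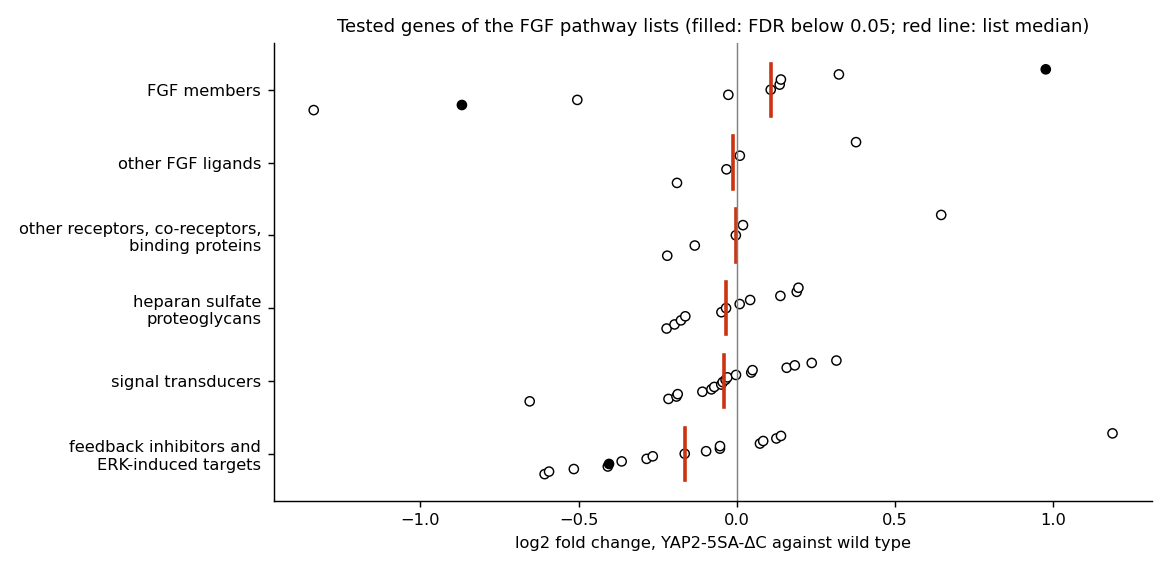
Log2 fold change of YAP2-5SA-∆C against wild type skin (horizontal axis) of each tested gene of the FGF genes and the 5 pathway lists, with the list median as a red line and filled points where the QL FDR was below 0.05. Filled are *Fgf22* and *Fgfbp1* among the FGF genes and *Flrt2* among the feedback inhibitors and ERK-induced targets, whose median of -0.16 is the lowest.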

How the data were processed

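Skin RNA-Seq libraries of 3 wild type and 3 YAP2-5SA-∆C mice were analysed. The deposited values are raw counts, which the authors made by mapping reads to GRCm38 with TopHat2 and Bowtie2 (versions 2.0.12 and 2.1.0 in the submitters' processing notes, while the paper names another TopHat2 version) and counting uniquely mapped reads of each Ensembl gene with HTSeq. Neither the annotation release nor whether counting used strand is given in the sources used here. A total RNA kit is named in the labels, and mRNA libraries in the paper. Columns were assigned to mice by name.

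Genes that reached 1 CPM in 3 or more libraries were scaled with TMM and tested in R 4.3.3 by the quasi-likelihood test of edgeR 4.0.16, with genotype as the sole covariate, Benjamini-Hochberg adjustment and an FDR threshold of 0.05. Alternatives were the likelihood-ratio test with common and tagwise dispersions, voom (limma 3.58.1), DESeq2 1.42.0, scaling by RLE or upper quartile, no count filter or 10 counts in every sample, libraries without mitochondrial genes and the gene ENSMUSG00000045999, the replicate number as a block, and each library left out in turn. Tests were tried on simulated data. CPM, FPKM and SD were computed from the counts, and intervals of counts cover counting error only.

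Gene names, exons and positions came from GENCODE M21, and 171 of 175 listed symbols were matched in the table. The members and lists were chosen with earlier results of these data known. The text names all 10 FGF genes, pathway genes past the FDR and the 2 with the lowest p in each list, the gene with the highest mean of each of 11 cell type lists, and the 3 list genes most correlated with each FGF gene that passed either edgeR test. RT-PCR data were not analysed here.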

Additional observations from a re-analysis of the deposited data

How the results depend on the processing

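Of 134 refits of single FGF genes over 15 alternatives, 119 kept their direction and their side of the threshold. That number includes *Fgf7*, *Fgf10*, *Fgf18*, *Fgfr1* and *Fgfr2* (15 of 15 each), which passed under none of them. Of the genes that passed, *Fgf22* kept its call in 9 of 15 and *Fgfbp1* in 10 of 15. *Fgf22* and *Fgfbp1* kept their calls under the other scalings, filters and tests, leaving aside the replicate block and single libraries left out. The likelihood-ratio test and DESeq2 added *Fgf5*, which the filter of 10 counts in every sample left out. Among all tested genes 288 passed in the main test, 1568 in the likelihood-ratio test, 1590 in DESeq2, 497 without a count filter and 0 to 816 when a library was left out. FGF genes past the threshold numbered 0 to 2 (0 without YAP2-5SA-∆C replicate 3 or any one wild type library, 1 without YAP2-5SA-∆C replicate 1), pathway genes 0 to 3 and cell type genes 0 to 28 when a library was left out (816, 3 and 28 without YAP2-5SA-∆C replicate 2, the 3 all lower and the 28 made up of 5 higher and 23 lower, of which 21 were in the hair shaft and inner root sheath lists; that fit also gave 2 FGF genes). Pathway genes numbered 1 in the main test, 5 in the likelihood-ratio test and 6 in DESeq2. Cell type genes numbered 3, 33 and 19 in that order. The log2 fold change of *Fgfr3* ran from -0.039 to 0.025 when a library was left out, being above 0 without YAP2-5SA-∆C replicate 1 (0.025) or wild type replicate 2 (0.0034). The cause of these differences was not tested.

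With the replicate number as a block, edgeR's quasi-likelihood test called 0 genes of all, 0 FGF genes, 0 pathway genes and 0 cell type genes, with 2949 genes of all and 4 FGF genes at an unadjusted p under 0.05. Likewise 0 genes of all passed without wild type replicate 2 (2725 at that p), without wild type replicate 3 (2844) and without YAP2-5SA-∆C replicate 3 (3692). Same-numbered libraries did not deviate together (correlations -0.332, -0.228 and -0.0501), and 0 of 6 libraries correlated best with their own number. The labels give no pairing beyond the number. With 3 libraries of each genotype, these correlations cannot show whether same-numbered mice shared a litter or batch.

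The wild type order of levels per length was the same without TMM factors and kept 7 of 10 ranks with the longest transcript. Depth limits the low genes: *Fgf21* had at most 7 counts in a library, and *Fgf5* had 8 counts in YAP2-5SA-∆C replicate 2.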

Other observations

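*Fgf23*, whose protein is an endocrine regulator of phosphate, was below the count filter and was singled out after its values were seen. It had 6, 1 and 4 counts in wild type and 10, 27 and 42 counts in transgenic skin, or 0.330, 0.0523 and 0.381 CPM against 0.556, 1.59 and 2.62 CPM. The genotypes did not overlap, and without the count filter the log2 fold change was 2.73 and the QL FDR 0.0789.

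All 8 macrophage genes were fitted higher in transgenic skin, 2 passed the QL FDR (25.0%, against 1.44% of all genes tested) and 7 were higher at an unadjusted p under 0.05 (87.5%, against 13.3%). The list summed to 419 to 506 CPM in wild type and 591 to 669.9 CPM in transgenic skin. *Mrc1*, the macrophage mannose receptor gene, rose by 0.54 on the log2 scale (QL FDR 0.0341). *Csf1r*, the receptor gene for colony stimulating factor of macrophages, named after its values were seen, rose by 0.54 (QL FDR 0.0456). Both passed without YAP2-5SA-∆C replicate 2 (QL FDR 0.0182 and 0.0383), and neither passed without wild type replicate 1 (0.0583 and 0.0689), 2 (0.178 and 0.186) or 3 (0.132 and 0.114) or without YAP2-5SA-∆C replicate 3 (0.0906 for both). Without YAP2-5SA-∆C replicate 1, *Mrc1* passed (0.0432) and *Csf1r* did not (0.0709).

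The 7 lists that follow had 0 genes past the QL FDR with all 6 libraries. Without YAP2-5SA-∆C replicate 2, 1 of 8 outer root sheath and bulge genes and 1 of 10 dermal papilla genes passed as lower. Of 4 suprabasal keratinocyte genes, 1 passed as higher. In that fit 5.46% of all genes passed in either direction, against 1.91% with all 6 libraries. Outer root sheath and bulge genes, with *Krt17* highest, summed to 2106 to 2294 CPM in wild type and 1409 to 1780.3 CPM in transgenic skin, with 3 of 8 genes past an unadjusted p of 0.05 (1 higher and 2 lower), which 26.3% of all genes tested passed (13.3% higher and 13.0% lower). Dermal papilla genes, with *Prdm1* highest, summed to 139 to 157 and 122.7 to 140.2 CPM, with 2 higher and 3 lower of 10 at that p. Fibroblast genes, with *Col3a1* highest, were all 8 fitted higher and summed to 9824 to 13249 and 12684 to 16442 CPM, with 4 of 8 higher at that p and a median log2 fold change of 0.27, which was 0.22 without YAP2-5SA-∆C replicate 2. Suprabasal keratinocyte genes, with *Krt10* highest, summed to 3379 to 4085 and 4362 to 8232 CPM, with 1 of 4 higher and a median log2 fold change of 0.50, which was 0.10 without YAP2-5SA-∆C replicate 2. Adipocyte genes (*Fabp4* highest) summed to 1151 to 1515 and 1048 to 1572 CPM, skeletal muscle genes (*Myh4* highest) to 1461 to 7130.1 and 1403 to 3611 CPM (all 8 fitted lower, median log2 fold change -1.10, and -0.998 without YAP2-5SA-∆C replicate 2), and cell cycle genes (*Mki67* highest) to 1072 to 1170.0 and 932 to 1161 CPM, each with 0 of 8 genes past that p. In the likelihood-ratio test, where 10.4% of all genes tested passed an FDR of 0.05, 3 macrophage genes were higher, 2 outer root sheath genes were lower, 1 dermal papilla gene was higher and 2 were lower, and 1 suprabasal gene was higher. DESeq2, which called 10.7% of the 14807 genes with an adjusted p, called 5 macrophage genes, 2 fibroblast genes (*Col3a1* and *Lum*) and 1 suprabasal gene (*Krt1*) higher. It also called 1 gene higher and 1 lower in each of the outer root sheath list (*Krt15* and *Krt17*) and the dermal papilla list (*Crabp1* and *Corin*), all named after their values were seen.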
